A study of Mus musculus with 8 samples.

Results

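The genes described are 10 chemokine genes: the CXC chemokines *Cxcl1*, *Cxcl2*, *Cxcl9*, *Cxcl10*, *Cxcl12*, *Cxcl13*, *Cxcl14* and *Cxcl16*, and the homeostatic CC chemokines *Ccl19* and *Ccl21a* of lymphoid tissue. They were chosen by name from 19505 genes with a symbol, each read from the transcript cluster (the set of array probes for 1 gene) that carries its symbol. All 10 were measured, each by 1 cluster. RNA of C57BL/6 mouse spleens was read on Affymetrix Clariom S HT arrays, 4 from control animals (Trp53KI/KI) and 4 from animals with lymphoma (Trp53KI/KI;Vav1DC/DC). Both groups carry the same knock-in allele, which encodes a fusion with the oestrogen receptor that is largely inactive without tamoxifen. The lymphoma group also carries, at both copies of the endogenous *Vav1* locus, an edited allele that encodes VAV1 cut short in its C-terminal SH3 domain, so disease and *Vav1* genotype cannot be told apart. The age of the animals on the arrays is not given in the sources used here. Values are on the log2 scale, and changes are lymphoma minus control.

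Chemokines are small secreted proteins that bind heparan sulphate on cells and matrix and guide leukocytes that bear the matching G protein-coupled receptor. In the spleen, CXCL13 draws CXCR5-bearing B cells and follicular helper T cells into follicles, CCL19 and CCL21 hold CCR7-bearing T cells and dendritic cells in the T zone, and CXCL12 retains CXCR4-bearing plasma cells and progenitors in the red pulp. CXCL9 and CXCL10 are induced by interferon gamma and attract activated T cells through CXCR3, whereas CXCL1 and CXCL2 mobilise neutrophils through CXCR2.

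The stretch upstream of the start was in RefSeq (build GRCm38.p6) for 9 of the 10 genes, all but *Cxcl16*. Those of 6 genes are printed because they set the pairs that moved together or apart side by side: *Cxcl9* and *Cxcl10*, which both rose, *Cxcl1* and *Cxcl2*, which were both not called, and *Ccl19* and *Ccl21a*, which share the receptor CCR7 and moved in opposite directions. Each holds the 250 bases before the annotated start, 5′ to 3′ along the strand of the gene. Capitals mark matches, on either strand, to the core of the interferon-stimulated response element (GAAANNGAA), to the gamma-activated site (TTCNNNGAA) or to the NF-kappaB site.
*Cxcl9*, chr5:92328080-92328329, minus strand: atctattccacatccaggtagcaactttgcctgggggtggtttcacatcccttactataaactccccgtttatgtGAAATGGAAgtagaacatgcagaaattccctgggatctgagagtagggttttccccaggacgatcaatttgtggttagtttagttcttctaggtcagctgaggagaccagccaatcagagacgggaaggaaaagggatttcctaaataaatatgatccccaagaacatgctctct
*Cxcl10*, chr5:92348890-92349139, minus strand: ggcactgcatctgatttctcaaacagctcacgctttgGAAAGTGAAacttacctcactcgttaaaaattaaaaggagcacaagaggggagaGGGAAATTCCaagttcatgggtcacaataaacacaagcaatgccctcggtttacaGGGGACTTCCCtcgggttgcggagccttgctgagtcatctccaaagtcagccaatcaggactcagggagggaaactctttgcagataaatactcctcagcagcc
*Cxcl1*, chr5:90890995-90891244, plus strand: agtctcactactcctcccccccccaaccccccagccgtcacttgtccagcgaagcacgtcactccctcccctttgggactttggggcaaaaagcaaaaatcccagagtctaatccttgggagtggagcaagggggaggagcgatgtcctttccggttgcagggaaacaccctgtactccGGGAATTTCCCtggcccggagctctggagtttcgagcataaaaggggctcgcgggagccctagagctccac
*Cxcl2*, chr5:90903649-90903898, plus strand: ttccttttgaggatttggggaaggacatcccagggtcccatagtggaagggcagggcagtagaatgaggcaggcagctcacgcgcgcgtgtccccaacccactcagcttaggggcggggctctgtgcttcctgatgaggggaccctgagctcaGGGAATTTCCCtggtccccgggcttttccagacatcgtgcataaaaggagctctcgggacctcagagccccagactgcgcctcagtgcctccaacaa
*Ccl19*, chr4:42756366-42756615, minus strand: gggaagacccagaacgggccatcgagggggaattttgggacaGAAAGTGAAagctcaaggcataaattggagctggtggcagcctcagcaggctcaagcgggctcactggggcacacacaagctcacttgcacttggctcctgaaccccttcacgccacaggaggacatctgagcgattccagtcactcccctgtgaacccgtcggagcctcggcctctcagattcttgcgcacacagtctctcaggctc
*Ccl21a*, chr4:42773992-42774241, minus strand: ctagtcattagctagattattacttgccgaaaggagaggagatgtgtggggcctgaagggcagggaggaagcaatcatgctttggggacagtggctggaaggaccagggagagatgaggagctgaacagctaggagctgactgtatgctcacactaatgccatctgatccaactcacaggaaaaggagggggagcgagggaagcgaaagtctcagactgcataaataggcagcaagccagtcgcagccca
The response element core occurred in *Cxcl9* (first base 175 bases before the start), *Cxcl10* (213), *Ccl19* (208) and *Cxcl14* (172), that is in 4 of the 9 stretches, against 7.13% of the 32851 promoters searched in windows of the same length. The NF-kappaB site occurred in *Cxcl1* (71), *Cxcl2* (97) and *Cxcl10* (159 and, in overlapping matches, 104 and 103), with 7.25% of all promoters holding one. *Cxcl1* and *Cxcl2* carried the same 10 letters, GGGAATTTCC. In both, a match on the opposite strand lay 1 base further on, over the letters GGAATTTCCC as written along the strand of the gene. The gamma-activated site, found in 7.02% of all promoters, was present in *Cxcl14* only among the 9, and its letters match on both strands. No match to the 3 motifs was in the windows of *Cxcl12*, *Cxcl13* and *Ccl21a*. These matches describe letters, not bound sites. The stretch of *Ccl21a* is that of the copy at the printed coordinates, whereas the values read as *Ccl21a* cannot be ascribed to 1 copy, as described below.

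The arrays of a group resembled each other (Pearson correlations across clusters of 0.992 to 0.995 within groups and 0.967 to 0.979 between them). The hybridisation spikes, labelled RNAs added to the hybridisation mix, were dimmer on lymphoma arrays (10.93 to 11.21) than on control arrays (11.43 to 11.52), a difference of -0.39. Set against the spikes, the called falls smaller than that would turn, namely those of *Cxcl12*, *Cxcr4*, *Cxcr5*, *Jak1*, *Map3k14*, *Tlx1* and 2 of 8 B cell markers. The 3 measured Y-linked genes also read lower there, with a mean of 7.82 to 8.79 against 9.60 to 9.75. All 3 were above the array background median on all 8 arrays. In lymphoma spleens *Kdm5d* read 7.67, *Uty* 8.08 and *Eif2s3y* 9.45 on average, against 9.04, 9.33 and 10.73 in control spleens. The control means of all 3 exceeded all 23 background probe sets. In lymphoma spleens the means of *Kdm5d* and *Uty* exceeded only 16 and 18 of them, and that of *Eif2s3y* all 23. The methods speak of female animals for work in vivo, with which the control readings are at odds. The sex behind each array is not given, and whether the groups differ in it is not known. The part of the spikes and of sex in the changes below was not tested. In control spleens *Vav1* itself read 10.18 ± 0.15 (SD, n = 4), against 10.49 ± 0.08 (SD, n = 4) with lymphoma, a change of 0.31 (limma adjusted p = 0.0149). This cluster reads the transcript as a whole and does not check the edit. *Tlx1* and *Nkx2-3*, transcription factor genes that the spleen needs to form, read above the array background median on all 8 arrays. The sources do not say whether the arrays come from different animals, and the p-values therefore cover the spread of these samples, which may be technical.

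Of the 10 chemokine genes, 4 were higher in lymphoma spleens (*Cxcl9*, *Cxcl10*, *Cxcl16* and *Ccl19*), 3 were lower (*Cxcl13*, *Ccl21a* and *Cxcl12*) and 3 missed the threshold (*Cxcl1*, *Cxcl2* and *Cxcl14*) (limma, adjusted p threshold 0.05). Among all 22206 clusters, 18.2% were called higher and 17.2% lower, shares that also stand beside the counts of every list below. The same 7 genes had no overlap between the groups, against 18.0% of all clusters without overlap and higher and 16.7% without overlap and lower. All 4 genes that rose did so by at least 2-fold, a size that 3.03% of all clusters reached upwards, and *Ccl21a* fell by at least 2-fold, as did 0.680% of all clusters. The median change of the 10 genes was -0.005, against -0.056 over all clusters. In whole spleens, fewer cells of a type and less RNA per cell cannot be told apart.

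**Figure D1:**
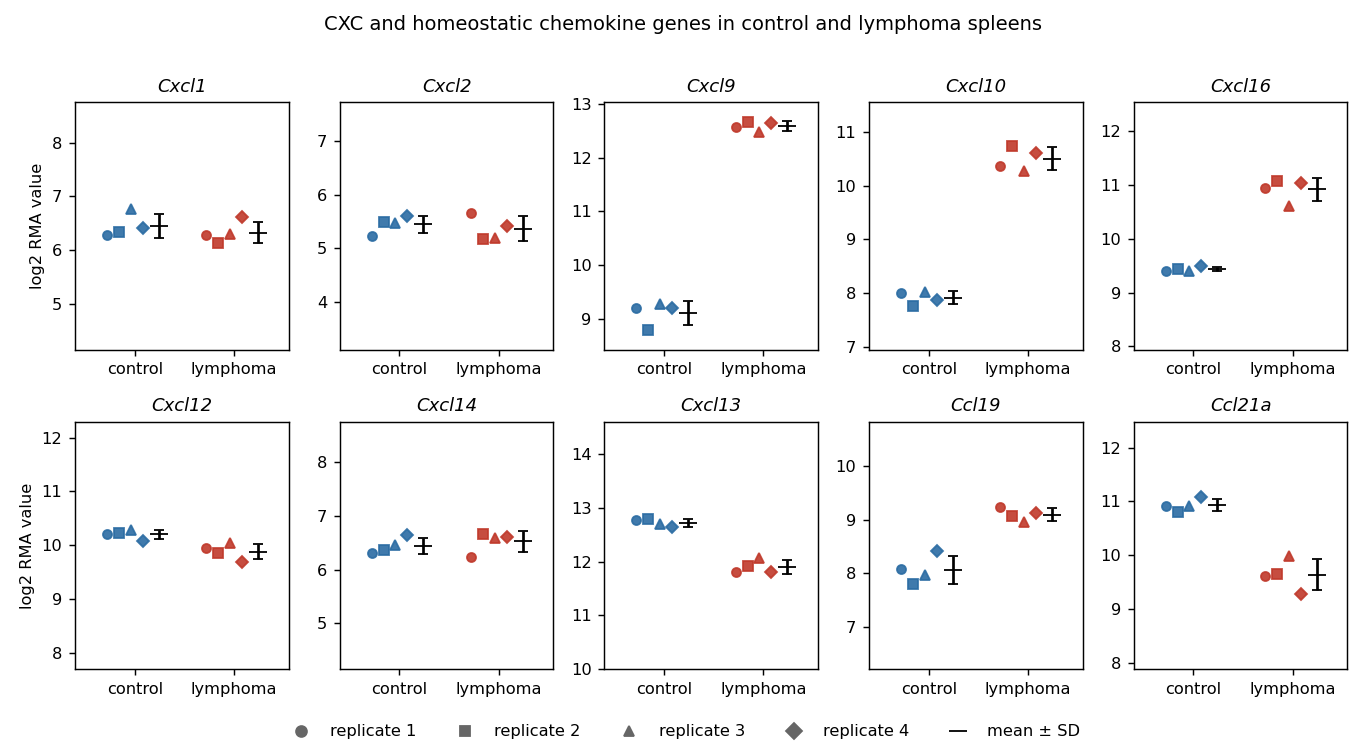
Log2 values of the 10 chemokine genes on each of the 8 arrays (blue control, red lymphoma, marker shape by replicate number), with the group mean ± SD in black. Every panel spans the same log2 range; *Cxcl9*, *Cxcl10*, *Cxcl16* and *Ccl19* are higher on all 4 lymphoma arrays, *Cxcl12*, *Cxcl13* and *Ccl21a* lower, and the groups of *Cxcl1*, *Cxcl2* and *Cxcl14* overlap.

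*Cxcl9*, an interferon gamma-induced ligand of CXCR3, was at 9.20, 8.79, 9.28 and 9.20 in control spleens and at 12.56, 12.67, 12.47 and 12.65 in lymphoma spleens. The lowest lymphoma value lay far above the highest control value, and control replicate 2 was below the other 3 controls. The rise was 3.47 (standard error 0.11, 95% confidence interval 3.24 to 3.70), or 11.1-fold (limma adjusted p = 2.28e-10), which ranked 16 among the rises of all 22206 clusters. *Cxcl10*, the second CXCR3 ligand, was at 7.995, 7.76, 8.02 and 7.88 in control spleens and at 10.37, 10.74, 10.28 and 10.61 in lymphoma spleens. It rose by 2.58 (standard error 0.11, interval 2.35 to 2.82), or 6.00-fold (limma adjusted p = 4.38e-09), rank 43. The intervals of the 2 rises do not meet, that of *Cxcl9* being the higher.

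*Cxcl11*, the third ligand of this receptor, is annotated as a transcribed pseudogene in RefSeq of this strain's genome. Its cluster was at 5.16, 5.50, 5.58 and 5.19 in control spleens and at 7.63, 8.25, 6.70 and 7.63 in lymphoma spleens, a rise of 2.19 (limma adjusted p = 1.15e-05). Its control mean exceeded only 13 of the 23 background probe sets, so the size of this rise is uncertain. Lymphoma replicate 3 stood below the other lymphoma arrays but above every control array. On chromosome 5 these genes follow each other in the order *Cxcl9*, *Art3*, *Cxcl10* and *Cxcl11*. *Art3*, a gene of the ADP-ribosyltransferase family that lies between them, changed by 0.19 (limma adjusted p = 0.0715), and was called with cyclic loess normalisation, the unmoderated test and the filter on the dimmest 50% of clusters. Outside the group, *Sdad1* was not called (-0.07), while *Naaa*, which encodes a lysosomal amidase, rose by 0.68 and the nucleoporin gene *Nup54* by 0.26, a call lost without any 1 of control replicate 2 (0.22), lymphoma replicate 1 (0.24) or lymphoma replicate 2 (0.24). The largest change of these neighbours was thus less than that of any of the 3 ligands.

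**Figure D2:**
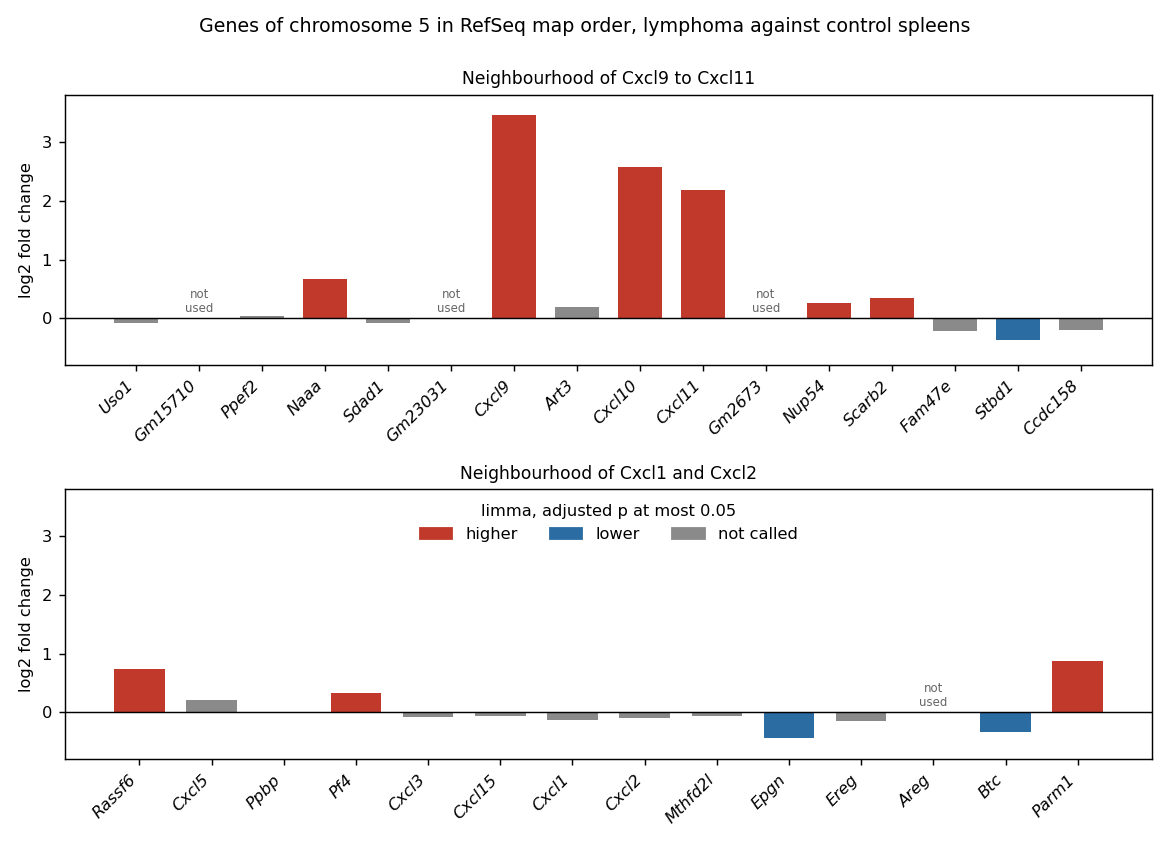
Log2 fold change (lymphoma minus control) of genes in map order around the CXCR3 ligands (top) and around *Cxcl1* and *Cxcl2* (bottom), bars from 0 and coloured by the limma call at an adjusted p of at most 0.05; "not used" marks genes not analysed here. *Cxcl9*, *Cxcl10* and *Cxcl11* rise by 3.47, 2.58 and 2.19 around *Art3* at 0.19, and in the lower group only *Pf4* of the 7 chemokine genes is called.

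*Cxcr3*, the receptor gene of these ligands, was at 8.58, 8.71, 8.57 and 8.67 in control and 9.44, 9.51, 9.40 and 9.36 in lymphoma spleens. It rose by 0.80 (standard error 0.08, limma adjusted p = 3.17e-06), a smaller rise than that of either ligand. Of 9 measured genes of the interferon gamma signal, 5 rose, 1 fell and 3 were not called, with a median of 0.75. *Ifng*, the cytokine gene itself, was at 5.55, 5.69, 5.28 and 6.13 in control and 9.07, 9.47, 8.999 and 9.10 in lymphoma spleens, a rise of 3.50 (limma adjusted p = 7.59e-09). The control values of *Ifng* lay within the spread of the background probe sets (its mean exceeded 13 of 23). The mean of *Cxcl9* exceeded all 23 in both groups. The guanylate-binding protein gene *Gbp2*, a classical interferon gamma target, rose by 2.66, the feedback inhibitor gene *Socs1* by 1.36 and the transcription factor genes *Irf1* and *Irf8* by 0.84 and 0.75. *Jak1*, which encodes a kinase of the interferon receptors, fell by 0.29, and the receptor chain genes *Ifngr1* and *Ifngr2* had changes of 0.05 and 0.04 that did not pass the test.

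**Figure D3:**
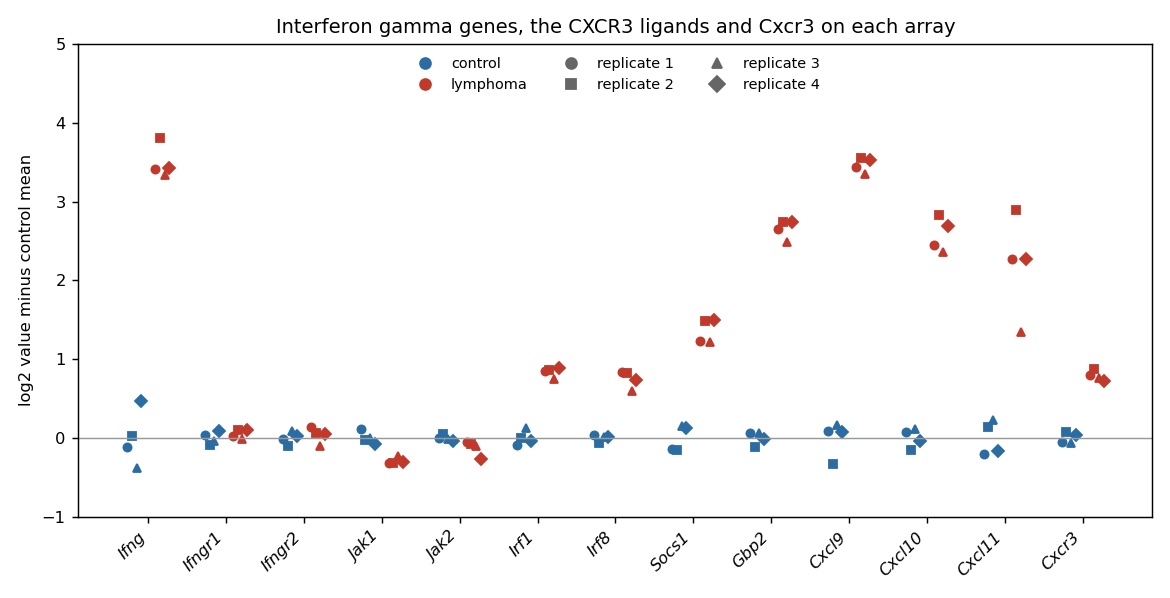
Log2 value minus the control mean for genes of the interferon gamma signal, the CXCR3 ligands and *Cxcr3* on each array (blue control, red lymphoma, marker shape by replicate number). *Ifng*, *Gbp2*, *Cxcl9*, *Cxcl10* and *Cxcl11* stand apart from controls on all 4 lymphoma arrays, and lymphoma replicate 3 is the lowest lymphoma array for *Cxcl9* (12.47), *Cxcl10* (10.28) and *Cxcl11* (6.70).

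*Cxcl16* encodes a transmembrane chemokine that is shed from macrophages and dendritic cells and also acts as a scavenger receptor for oxidised lipids. It was at 9.40, 9.45, 9.41 and 9.49 in control spleens and at 10.95, 11.07, 10.61 and 11.04 in lymphoma spleens. The controls were tightly grouped, and lymphoma replicate 3 was the lowest of its group. The rise was 1.48 (standard error 0.10, interval 1.27 to 1.70), or 2.79-fold (limma adjusted p = 1.67e-07). Its receptor gene *Cxcr6*, carried by effector and tissue-resident T cells, was at 6.95, 6.96, 6.90 and 6.41 in control and 7.39, 7.05, 7.65 and 6.84 in lymphoma spleens. The groups overlapped and the difference of 0.43 (interval 0.07 to 0.79) missed the threshold (limma adjusted p = 0.0638). It passed without lymphoma replicate 4, at 0.56 (limma adjusted p = 0.0193), and under 3 other settings given in the closing section.

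Of the proteases that release or trim these chemokines, *Adam10*, the main constitutive sheddase of CXCL16, had a change of 0.06 that did not pass the test. *Adam17*, which sheds CXCL16 on stimulation, rose by 0.31 (limma adjusted p = 0.0044). *Mmp9*, a gelatinase stored in neutrophil granules that cleaves several CXC chemokines, rose by 1.16 (limma adjusted p = 7.92e-06) from values within the spread of the background probe sets. *Dpp4*, which encodes the peptidase CD26 that trims the ends of CXCL9, CXCL10 and CXCL12, was at 8.94, 8.86, 8.90 and 8.71 in control and 8.17, 8.03, 8.20 and 7.89 in lymphoma spleens, without overlap, and fell by 0.78 (limma adjusted p = 1.93e-05).

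For the neutrophil-attracting ligands, no difference passed the test. *Cxcl1* was at 6.29, 6.33, 6.77 and 6.41 in control and 6.28, 6.13, 6.30 and 6.61 in lymphoma spleens, a difference of -0.12 (interval -0.39 to 0.14, limma adjusted p = 0.468). *Cxcl2* was at 5.23, 5.49, 5.48 and 5.61 in control and 5.67, 5.17, 5.19 and 5.42 in lymphoma spleens, a difference of -0.09 (interval -0.34 to 0.17, limma adjusted p = 0.594). Both groups overlapped for either gene, and the intervals leave room for small falls and for small rises. Both genes read above the background median on all 8 arrays, but their means exceeded only 14 and 13 of the 23 background probe sets.

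Of the 7 chemokine genes that RefSeq places next to each other here (*Cxcl5*, *Ppbp*, *Pf4*, *Cxcl3*, *Cxcl15*, *Cxcl1* and *Cxcl2*), *Pf4*, the platelet factor gene, alone was called. It rose by 0.34 (limma adjusted p = 0.0312), a call lost without control replicate 2 (0.23), lymphoma replicate 1 (0.32) or lymphoma replicate 3 (0.28), and with the unmoderated test (adjusted p = 0.1016). Without control replicate 1, *Cxcl5* was called as well (0.32, limma adjusted p = 0.0353), though its means over all arrays of either group exceeded only 13 of the 23 background probe sets. The receptor genes *Cxcr1* and *Cxcr2* had differences of -0.10 and -0.13 that did not pass the test, with intervals of -0.29 to 0.08 and -0.34 to 0.08. *Ackr1*, an atypical receptor of venules and erythroid cells that binds these ligands without signalling, was not called either (0.21). For *Cxcr1* and for *Ackr1*, control and lymphoma means alike stood above just 13 of 23 background probe sets. Whether *Cxcr1* and *Ackr1* were detected is therefore uncertain. Among 9 genes that induce *Cxcl1* and *Cxcl2* or lie in that route, 5 rose and none fell: *Il1b* (1.64), *Il1a* (1.45), the adaptor gene *Myd88* (0.75), the endotoxin receptor gene *Tlr4* (0.45) and the inhibitor gene *Nfkbia* (0.38). *Il6* did not exceed the background median on 4 control and 2 lymphoma arrays. Genes of neutrophils rose in the same spleens: all 10 measured neutrophil markers were called higher, among them the granule genes *Ngp* (4.21) and *Retnlg* (3.08) and the calgranulin genes *S100a8* (3.65) and *S100a9* (3.35). Their mean level went from between 6.64 and 6.89 on control arrays to between 9.35 and 9.59 on lymphoma arrays.

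*Cxcl14*, a chemokine gene best known from epithelia whose receptor is not settled, was at 6.30, 6.37, 6.45 and 6.65 in control and 6.24, 6.66, 6.596 and 6.603 in lymphoma spleens. The groups overlapped, with a difference of 0.08 (interval -0.15 to 0.31, limma adjusted p = 0.603), and its means exceeded 14 of the 23 background probe sets.

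*Cxcl12*, made by reticular and vascular stroma, was at 10.21, 10.22, 10.29 and 10.08 in control and 9.95, 9.85, 10.03 and 9.69 in lymphoma spleens. The groups did not overlap, though the lowest control and the highest lymphoma array lay close together. It fell by 0.32 (standard error 0.09, interval -0.51 to -0.13, limma adjusted p = 0.0140), the smallest fall among the 3 genes that fell. Relative to the hybridisation spikes its change would be 0.07. Its receptor gene *Cxcr4* fell by 0.39 (limma adjusted p = 0.0038). *Ackr3*, which encodes an atypical receptor that takes up and degrades CXCL12, was at 8.75, 8.79, 8.84 and 8.42 in control and 7.62, 7.42, 7.97 and 7.57 in lymphoma spleens. It fell by 1.05 (standard error 0.12, limma adjusted p = 1.96e-05), more than the ligand and its signalling receptor.

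*Cxcl13*, the B cell-attracting chemokine of follicles, was at 12.78, 12.80, 12.70 and 12.64 in control spleens and at 11.80, 11.92, 12.07 and 11.80 in lymphoma spleens. Every lymphoma array lay below every control array. It fell by 0.83 (standard error 0.09, interval -1.01 to -0.65), so that lymphoma spleens were 1.78-fold lower (limma adjusted p = 6.22e-06). Its receptor gene *Cxcr5* was at 10.40, 10.37, 10.26 and 10.23 in control and 9.98, 9.92, 10.13 and 9.78 in lymphoma spleens, and fell by 0.36 (limma adjusted p = 0.0060). By flow cytometry, the paper reports a higher share of PD1- and CXCR5-bearing follicular helper cells among CD4 splenocytes of the lymphoma genotype. That measure is surface protein on a gated cell type, whereas the arrays read RNA of the whole spleen. All 8 measured B cell markers fell, among them *Pax5* (-0.997), *Ms4a1* (-0.94), *Blk* (-0.91) and *Cd79a* (-0.80), with a mean level of 10.95 to 11.05 on control and 10.24 to 10.41 on lymphoma arrays. The markers of follicular dendritic cells, the stroma that makes CXCL13, did not move as one, since 5 of 7 rose and 2 fell. *Cr2* (-1.93) and *Fcer2a* (-1.79), the complement and IgE receptor genes that mature B cells also express, were those that fell. *Madcam1* (1.25), *Vcam1* (1.09) and *Icam1* (0.88), adhesion genes shared with endothelium, and *Mfge8* (0.70) and *Clu* (0.63), shared with phagocytes and other cells, rose. The mean of the list was 10.33 to 10.46 on control and 10.47 to 10.54 on lymphoma arrays. The part of B cells or of follicular stroma in the fall of *Cxcl13* was not tested.

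*Ccl19* and *Ccl21a*, the ligands of CCR7, moved in opposite directions. *Ccl19*, made by reticular cells of the T zone and by mature dendritic cells, was at 8.08, 7.80, 7.98 and 8.41 in control spleens and at 9.24, 9.07, 8.95 and 9.13 in lymphoma spleens. It rose by 1.03 (standard error 0.12, interval 0.77 to 1.28), or 2.04-fold (limma adjusted p = 1.75e-05), and control replicate 4 was the control nearest to the lymphoma arrays. *Ccl21a*, made by reticular cells and lymphatic endothelium, was at 10.92, 10.80, 10.91 and 11.08 in control spleens and at 9.62, 9.65, 9.99 and 9.27 in lymphoma spleens. It fell by 1.29 (standard error 0.13, interval -1.57 to -1.02), and lymphoma spleens were 2.45-fold lower (limma adjusted p = 4.47e-06). The lymphoma arrays of *Ccl21a* were spread more widely than the controls, with SDs of 0.29 and 0.12.

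The mouse genome holds near-identical copies of this gene, and the cluster read as *Ccl21a* lies on a contig assigned to chromosome 4 without a position on it. Clusters named *Ccl21b* and *Ccl21c* differed from it by at most 0.04 on any array, and a further *Ccl21b* cluster by at most 0.24, so the values cannot be ascribed to 1 copy. *Ccr7*, the receptor gene of both ligands, was at 10.08, 10.04, 10.05 and 10.10 in control and 9.32, 9.32, 9.59 and 9.61 in lymphoma spleens, and fell by 0.61 (limma adjusted p = 1.21e-04). *Ackr4*, which encodes the scavenging receptor of CCL19 and CCL21, had a difference of -0.14 that did not pass the test. With and without lymphoma, the mean of *Ackr4* stood above just 13 of 23 background probe sets, so its detection is uncertain.

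Of 8 measured markers of fibroblastic reticular cells, 4 rose, none fell and 4 did not pass the test. The matrix genes *Dcn* and *Col1a2* rose by 1.25 and 0.49, *Bst1* by 0.45 and *Pdpn*, the gene of podoplanin, by 0.41. *Lum* did not exceed the background median on 3 control and 4 lymphoma arrays. Their mean level was 7.79 to 7.97 on control and 8.08 to 8.31 on lymphoma arrays. This list thus moved in the direction of *Ccl19* and opposite to *Ccl21a*. Of 9 dendritic cell markers, 3 rose and 3 fell. *Fscn1*, the actin-bundling gene of mature dendritic cells, the integrin gene *Itgax* and the chemokine receptor gene *Xcr1* rose by 1.54, 1.68 and 0.83, whereas the lectin genes *Cd209a*, *Siglech* and *Clec9a* fell by 1.74, 1.11 and 0.48, the call of *Clec9a* being lost with the unmoderated test (adjusted p = 0.0563). Among 9 T cell markers 6 rose and none fell, led by *Cd6* (1.19), *Cd4* (0.85), *Cd3e* (0.83) and *Cd5* (0.67). The part of these cells in the changes of *Ccl19* and *Ccl21a* was not tested.

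Genes of the lymphotoxin and tumour necrosis factor route, which maintains CXCL13, CCL19 and CCL21 in lymphoid stroma, gave 5 rises and 3 falls among 11 measured genes. *Tnfrsf1a* (1.07), *Tnf* (0.87), *Ltbr* (0.36), *Tnfsf14* (0.33) and *Lta* (0.26) rose, and the ligand gene *Ltb* (-0.46), the kinase gene *Map3k14* (-0.39) and *Tlx1* (-0.28) fell. The calls of *Lta* and *Tlx1* were weak: that of *Lta* was lost without control replicate 2, control replicate 3 or any 1 lymphoma array (changes of 0.19 to 0.28), and that of *Tlx1* without replicate 1 or 2 of either group (-0.27 to -0.23). With cyclic loess and with the unmoderated test both calls were lost, and that of *Lta* also with equal array medians (adjusted p = 0.0649). The part of this route in the changes of the chemokines was not tested.

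**Figure D4:**
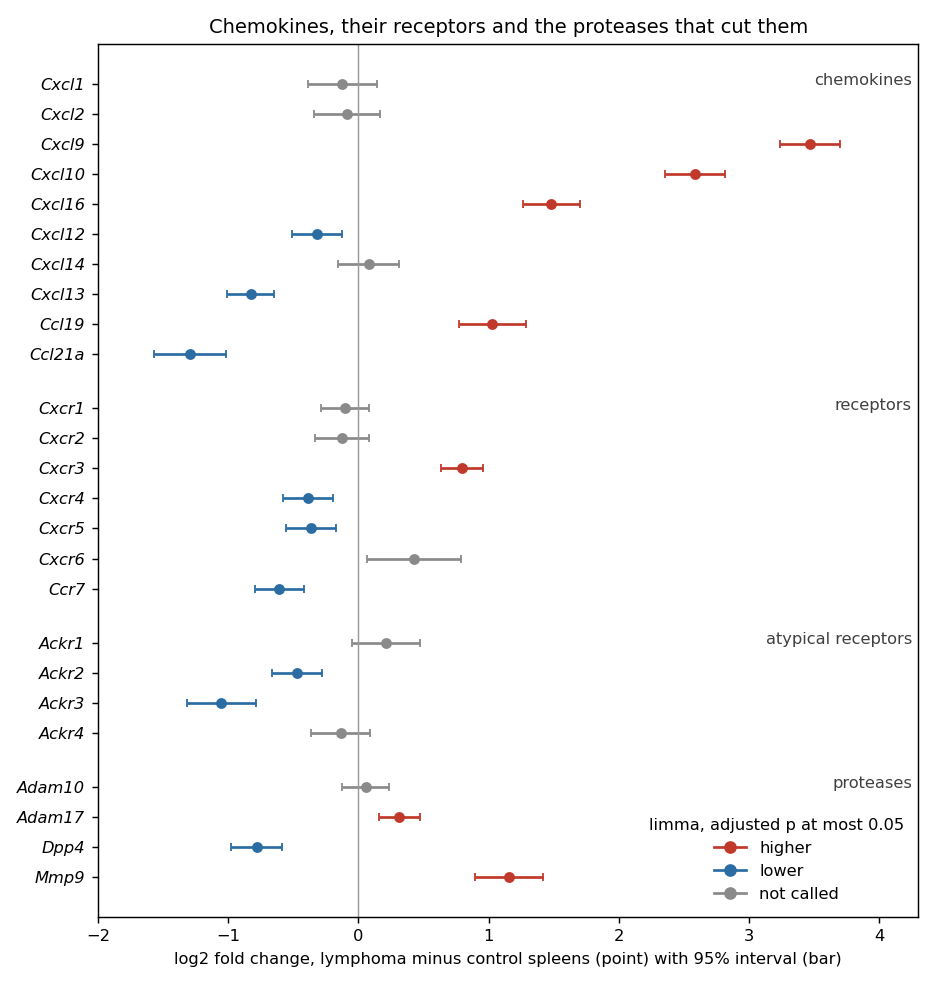
Log2 fold change (point) with its 95% confidence interval (bar) for the 10 chemokine genes, 7 receptors, 4 atypical receptors and 4 proteases, coloured by the limma call. *Cxcl9* (3.47) and *Cxcl10* (2.58) lie farthest to the right, *Ccl21a* (-1.29) and *Ackr3* (-1.05) farthest to the left, and of the receptors only *Cxcr3* (0.80) is called higher.

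Taken by receptor, the 7 receptor genes gave 1 rise (*Cxcr3*), 3 falls (*Ccr7*, *Cxcr4* and *Cxcr5*) and 3 that were not called, and the 4 atypical receptor genes gave 2 falls (*Ackr3* and *Ackr2*, -0.47) and no rise. ACKR2 takes up inflammatory CC chemokines and not the 10 described here. The receptors of *Cxcl9* and *Cxcl10*, of *Cxcl12* and of *Cxcl13* moved in the direction of their ligands, and *Ccr7* in that of *Ccl21a* but not of *Ccl19*. *Cxcl16* rose while *Cxcr6* was not called, and none of *Cxcl1*, *Cxcl2* and *Cxcr2* was called. Relative to the hybridisation spikes, the falls of *Cxcl12*, *Cxcr4* and *Cxcr5* would turn (0.07, 0.003 and 0.03). That of *Cxcl13* would not (-0.44). These are descriptions of signs and were not tested across pairs.

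Macrophages and monocytes are a major source of CXCL9, CXCL10 and CXCL16 in inflamed tissue. Of 12 measured markers of these cells, 8 rose, 3 fell and 1 was not called. The complement genes *C1qc* (2.77), *C1qa* (2.59) and *C1qb* (2.45) and the integrin gene *Itgam* (1.32) rose most, while the scavenger receptor genes *Cd163* (-1.09) and *Marco* (-1.04) and the sialic acid-binding receptor gene *Siglec1* (-0.62) fell. The call of *Siglec1* was lost with the unmoderated test (adjusted p = 0.0586). *Spic*, a transcription factor gene of red pulp macrophages, rose by 0.61, and *Adgre1*, a general macrophage marker gene, had a difference of -0.17 that did not pass the test. Their mean level was 8.60 to 8.82 on control and 9.40 to 9.54 on lymphoma arrays. Of 8 endothelial markers, *Eng* rose by 0.96, *Pecam1* fell by 0.88 and *Stab2* by 0.41, a call that *Stab2* lost when control replicate 2 (-0.38), control replicate 3 (-0.39), lymphoma replicate 2 (-0.32) or lymphoma replicate 4 (-0.35) was left out, and with the unmoderated test (adjusted p = 0.1079). The mean of the list overlapped between groups. Erythroid markers gave 3 rises of 6 (*Hemgn*, *Tfrc* and *Epor*, 0.99, 0.53 and 0.41), with overlapping means, and all 3 calls were lost with the unmoderated test (adjusted p of 0.0919, 0.0901 and 0.0590). Megakaryocyte markers, of which *Pf4* alone was called, overlapped as well. The part of any of these cells in the chemokine changes was not tested.

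**Figure D5:**
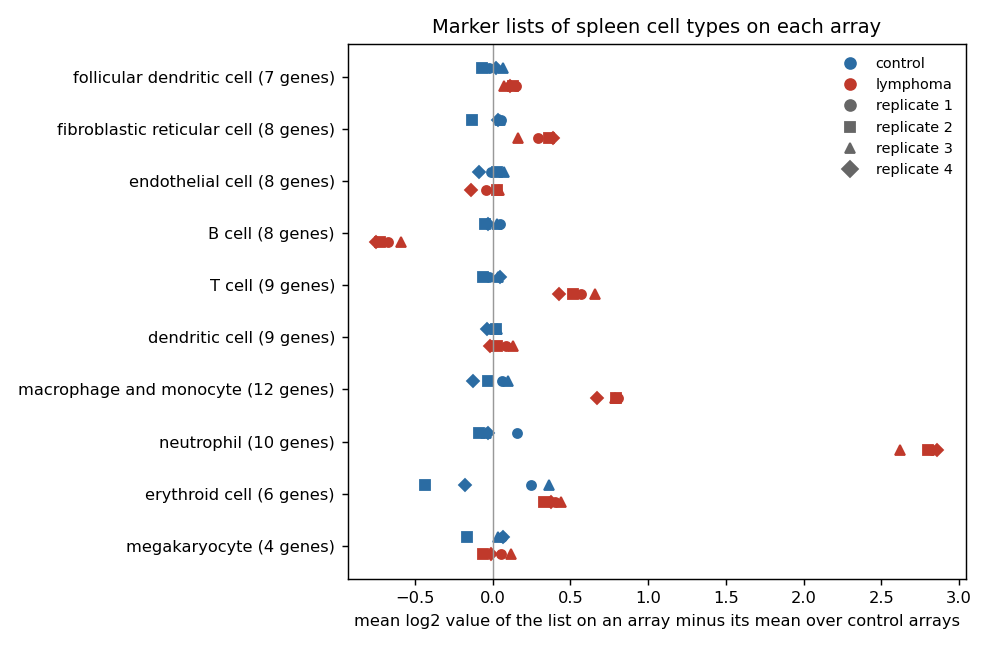
Mean log2 value of each marker list on each array minus the mean of that list over the control arrays (blue control, red lymphoma, marker shape by replicate number). Neutrophil, macrophage and T cell lists lie to the right on all 4 lymphoma arrays and the B cell list to the left, while endothelial, dendritic cell, erythroid and megakaryocyte lists overlap between groups.

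The 7 chemokine genes that were called shared a pattern among the lymphoma arrays. Lymphoma replicate 3 was the nearest of its group to the control mean for all 7: it was the lowest for *Cxcl9*, *Cxcl10*, *Cxcl16* and *Ccl19*, and the highest for *Cxcl12*, *Cxcl13* and *Ccl21a*. Over all 7864 called clusters, this array was the nearest for 43.2%, and the other lymphoma arrays for 15.1% to 25.8%. It also had the lowest lymphoma mean of the interferon gamma list (10.04, others 10.13 to 10.21) and of the neutrophil list (9.35, others 9.54 to 9.59), and the highest of the B cell list (10.41, others 10.24 to 10.32). Not every list went this way. For the T cell list, lymphoma replicate 3 was the farthest from controls (9.85, others 9.63 to 9.77, controls 9.13 to 9.24). For the macrophage and monocyte list, lymphoma replicate 4 was the nearest to them (9.40). Without this array the same directions were called, as given in the closing section. On the control side the nearest arrays were replicate 4 for 4 genes, replicate 3 for 2 and replicate 2 for 1.

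The genes whose course over the 8 arrays was nearest to that of *Cxcl9*, by the root mean square difference of values minus their control means, were *S100a9* (0.12), the Fc receptor gene *Fcgr4* (0.20) and *S100a8* (0.20), all of myeloid cells. Nearest to *Ccl21a* were its copies *Ccl21b* and *Ccl21c* (0.02 each) and *Klhl14* (0.045), which fell by 1.28. Since 8 arrays in 2 groups carry little more than the size of the group difference, this likeness is mostly one of fold change.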

How the data were processed

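Spleen RNA of 4 control and 4 lymphoma samples was read on 1 array each. Groups and replicate numbers came from the sample labels. The authors deposited log2 values, which they made from scanner files by the robust multichip average (RMA): background correction, equal probe distributions on every array, then 1 value per cluster from its probes. The submitters' processing notes name R 3.6.3. Because of that scaling, values are relative to the array as a whole, and changes near background can be understated. The labels name Trizol for the extraction and the methods a column kit. The genome build behind the clusters is not given in the sources used here.

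The table held 29129 rows, of which 6923 control probe sets were left out of the tests. Of the 22206 transcript clusters, 19572 had 1 gene symbol in the platform annotation, which can be old, and 2634 had none. Each gene was read from its cluster with the highest mean, which mattered for 55 genes and for none of the 10 described. The groups were compared in R 4.3.3 with limma 3.58.1 (lmFit and eBayes), with Benjamini-Hochberg adjustment over all clusters, and called where the adjusted p (two-sided) did not exceed 0.05. A value is above background where it exceeds the median of the 23 antigenomic probe sets of its array. The number of arrays limits the precision. The fit was tested on simulated arrays. Upstream sequences and gene order came from RefSeq (GRCm38.p6).

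The genes and lists were chosen with earlier results of these data known. The text names the 10 chemokine genes, all measured receptors, atypical receptors and proteases of these, up to 4 called genes with the largest change in each other list, list genes at background in a group, *Vav1*, and the 3 genes nearest in course to *Cxcl9* and *Ccl21a*. Other genes were named after their values were seen, to complete counts and to describe neighbours. Some genes are not reported here. Alternatives covered normalisation, variance moderation, array weights, dim clusters, the threshold, the replicate number as a block, the mean of a gene's clusters and each array left out. No hybridisation batch is given.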

Additional observations from a re-analysis of the deposited data

Results flagged for a closer look

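In a group of 4 arrays, the highest or lowest value was marked where its gap to the nearest of the others was, as a share of the group's range, above Dixon's 95% critical value. Of 216 pairs of a named gene and a group, 11 were marked, where chance gives about 1 in 20. Among the chemokine genes, *Cxcl9* in control replicate 2 stood at 8.79 with the nearest control at 9.20, and *Cxcl14* in lymphoma replicate 1 at 6.24 with the nearest at 6.596. Among receptors, *Cxcr4* in lymphoma replicate 3 stood at 10.07 (nearest 10.26) and *Cxcr6* in control replicate 4 at 6.41 (nearest 6.90). Control replicate 2 was also apart for *Ltb* (11.01), *Pax5* (11.33) and *Mfge8* (11.2), and control replicate 1 for *Map3k14* (9.48). Lymphoma replicate 3 was apart for *S100a8* (11.51) and *Jak1* (9.65), and lymphoma replicate 2 for *Nfkbia* (11.0). The calls of both marked chemokine genes were the same without the marked array.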

How the results depend on the processing

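Under all alternatives run, 4 chemokine genes were called higher and 3 lower, except that at an adjusted p of at most 0.01 *Cxcl12* (-0.32, adjusted p = 0.0140) was no longer called, leaving 2 lower. Over the alternatives the change of *Cxcl9* was 3.36 to 3.52, of *Cxcl10* 2.50 to 2.66, of *Cxcl16* 1.43 to 1.58, of *Ccl19* 0.94 to 1.14, of *Cxcl13* -0.89 to -0.80, of *Ccl21a* -1.41 to -1.17 and of *Cxcl12* -0.37 to -0.26. *Cxcl1*, *Cxcl2* and *Cxcl14* were called under none; the filter on the dimmest 50% of clusters removed all 3, and that on the dimmest 25% *Cxcl2*. With each array left out in turn, the counts of these genes were 4 and 3 throughout, those over the pathway lists 18 to 22 higher and 11 to 13 lower, and those over all clusters 3565 to 3910 higher and 3062 to 3670 lower. The threshold of 0.01 left 2166 lower clusters of 3825. Setting the array medians equal gave 3740 higher and 4605 lower clusters, against 4039 and 3825. Of 108 genes recomputed under the alternatives, 87 kept direction and side of the threshold under each that gave a value, 13 lost a call, 4 gained one and 4 that were not called changed sign. At the threshold of 0.01 *Pf4*, *Stab2*, *Tfrc*, *Epor*, *Lta*, *Ltbr*, *Tlx1*, *Vav1* and *Nup54* also lost the call, and with the unmoderated test *Pf4*, *Stab2*, *Hemgn*, *Tfrc*, *Epor*, *Lta* (adjusted p = 0.0864), *Tlx1* (0.0581), *Siglec1* and *Clec9a*. With cyclic loess *Lta* (0.0738) and *Tlx1* (0.0621) lost it and *Il6* (0.0120) and *Art3* (0.0494) gained it, and with trend and robust moderation *Hemgn* (0.0745) lost it. *Cxcr6* gained it with the replicate block (adjusted p = 0.0114), with trend and robust moderation (0.0431), with array weights (0.0430) and without lymphoma replicate 4. Among the fits without 1 array the sign changed for *Lum*, at background (-0.012 to 0.121), *Nkx2-3* (-0.121 to 0.066) and *Ppbp* (-0.115 to 0.106). It also changed with cyclic loess for *Nkx2-3* (0.038) and *Cxcl15* (0.028) and with array weights for *Ppbp* (0.015). The causes were not tested. Samples with the same replicate number deviated together with correlations of 0.12, 0.038, 0.035 and 0.17. Every lymphoma sample and 3 of 4 control samples correlated best with their own number. No pairing is stated in the sources used here, and the main fit did not take the numbers as pairs. With the number as a block, 4039 clusters were higher and 3983 lower. Apart from the gain of *Cxcr6* and the loss of *Lta* (adjusted p = 0.0516), the block changed no call among the genes recomputed. With 4 arrays a group, small changes in genes near background, such as *Cxcl1*, *Cxcl2* and *Cxcl14*, are the least certain.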
